A study of Mus musculus with 4 samples.

Results

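The genes described here are the inhibitors of cyclin-dependent kinases and the pocket proteins of the retinoblastoma family: Cdkn1a, Cdkn1b and Cdkn1c (Cip/Kip inhibitors), Cdkn2a, Cdkn2b, Cdkn2c and Cdkn2d (INK4 inhibitors), and Rb1, Rbl1 and Rbl2 (pocket proteins). Probes were taken by the gene symbol or RefSeq identifier, which gave 10 genes with 15 probes and 51 spots, of 20500 genes tested and 41174 probes on the array. All 15 probes passed the filter on dim probes. RNA came from 4TO7, a mouse mammary tumour line labelled BALB/cfC3H. The first group carried pMSCV-miR-23b/27b/24, a retroviral vector with the cluster of these microRNAs. The control group carried the empty pMSCV-puro vector, and both were stable lines. Each group had 2 arrays, which the series calls transfection replicates, so every p-value measures the spread between such replicates of a single line per group and may be technical. The promoter of the insert, and whether a line was a clone or a pool, are not given in the sources used here. On every array the cells' RNA carried Cy5, and Universal Mouse Reference RNA (pooled from several mouse cell lines) carried Cy3, with no dye swap. A log2 ratio below is Cy5 over Cy3 after normalization, and a fold change compares miR-23b/27b/24 cells with vector cells.

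Cyclin-dependent kinases drive cells from G1 into S phase when bound to cyclins. Cip/Kip proteins bind cyclin-kinase complexes, whereas INK4 proteins bind Cdk4 and Cdk6 and keep cyclin D off them. The pocket proteins Rb1, Rbl1 (p107) and Rbl2 (p130) bind E2F factors and repress their target genes until cyclin-dependent kinases phosphorylate them. Cdkn2a and Rb1 are known as tumour suppressor genes.

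The mature microRNAs are shown because their overexpression defines the first group. The cluster holds mmu-miR-23b, mmu-miR-27b and mmu-miR-24. The mature sequences of mmu-miR-27b-3p (chr13:63300760-63300780, plus strand) and mmu-miR-24-3p (chr13:63301251-63301272, plus strand) are from RefSeq, GRCm38.p6. Capitals mark the seed, bases 2 to 8, which the pair does not share.
mmu-miR-27b-3p: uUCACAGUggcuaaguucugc
mmu-miR-24-3p: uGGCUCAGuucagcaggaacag
None of the 15 probe sequences held a match to either seed (ACTGTGA or CTGAGCC), which says nothing of the rest of the transcripts.

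RefSeq promoter windows of 300 bases (250 before and 50 after a start, GRCm38.p6) were found for 8 of the 10 genes, 11 windows in all. There was none for Rb1 or Cdkn1c, so these genes were not searched. Both strands were searched for an E2F motif (TTTCGCGC or TTTGGCGC) and for a pair of p53 core letters (CATG, 6 bases of any kind, CATG, the same on both strands). The E2F motif was present in 0.813% and the p53 pair in 0.712% of 32851 promoter windows. Among the 11 windows, Rbl1 alone held the E2F motif and a window of Cdkn1a alone held the p53 pair. These windows are printed because the microarray readouts of both genes are described below, with the motif in capitals. The Rbl1 window (chr2:157204485-157204784, minus strand) has its motif 18 bases before the start. The Cdkn1a window (chr17:29090729-29091028, plus strand) has its pair 48 bases before a start that lies 2790 bases upstream of the other annotated Cdkn1a start. A match is a description of letters and shows no binding.
Rbl1 promoter window: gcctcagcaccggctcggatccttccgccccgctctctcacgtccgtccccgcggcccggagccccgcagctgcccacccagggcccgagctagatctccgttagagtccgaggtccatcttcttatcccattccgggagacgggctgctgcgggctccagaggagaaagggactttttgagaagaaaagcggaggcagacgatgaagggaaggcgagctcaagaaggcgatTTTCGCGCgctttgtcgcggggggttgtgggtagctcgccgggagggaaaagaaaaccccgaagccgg
Cdkn1a promoter window: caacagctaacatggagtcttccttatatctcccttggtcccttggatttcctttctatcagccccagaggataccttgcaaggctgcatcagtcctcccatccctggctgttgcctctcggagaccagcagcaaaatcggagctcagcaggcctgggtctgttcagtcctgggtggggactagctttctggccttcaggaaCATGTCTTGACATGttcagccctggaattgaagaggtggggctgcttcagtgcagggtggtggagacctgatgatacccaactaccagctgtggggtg

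The arrays of a group resembled each other more than those of the other group. Correlations of log2 ratios were 0.952 between the miR-23b/27b/24 arrays and 0.887 between the vector arrays, against 0.629 to 0.725 across groups. Between 69.8% and 74.8% of probes per array were well above background in Cy5, and all arrays shared 1 scan time. Mammary epithelial markers were well above background for 7 of 7 genes in both groups. Of these, 4 fell in miR-23b/27b/24 cells (log2 fold changes -4.49 for Krt7, -3.61 for Epcam, -2.95 for Cdh1 and -1.24 for Krt14) and 0 rose. Over all genes tested 4.64% fell and 4.77% rose at an adjusted p under 0.05. Of 7 fibroblast markers, all were well above background in both groups and 0 were called. Of 6 immune markers 5 were well above background in each group, and Cd68 fell (-1.68, limma adjusted p = 0.00679). Of 5 endothelial markers 3 were well above background in miR-23b/27b/24 cells and 4 in vector cells, with 0 calls. The defining genes Itgam and Cdh5 were well above background on 0 miR-23b/27b/24 arrays and 1 vector array. The part of these marker differences in the results below was not tested. More cells with a transcript and more transcript per cell cannot be told apart in such RNA.

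In miR-23b/27b/24 cells 2 of the 10 genes, Cdkn1a and Rb1, rose at an adjusted p under 0.05 and 0 fell. Over all genes tested 9.41% passed in either direction, 4.77% as higher and 4.64% as lower. For 8 of the 10 genes, 5 higher and 3 lower, the groups' arrays had no overlap, as for 59.8% of all genes (27.4% higher and 32.3% lower). By probe, 3 of 15 passed over all probes (9.85% of all probes did), and 10 of 15 had no overlap (60% of all probes). The median log2 fold change was 0.28 over the 10 genes and -0.03 over all genes. Both calls depended on how local background was treated. In the reported fit, spots whose local background Feature Extraction marked as outlying were given the array's median background. Without background correction both genes also passed (limma adjusted p = 0.0205 for Cdkn1a and 0.0201 for Rb1). With every local background as measured, 0 of the 10 genes passed by limma. In the reported fit 4 of the 10 genes had an unadjusted p under 0.05, as had 27.7% of all genes tested. The replacement of outlying backgrounds was chosen after its effect on these data was known.

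**Figure D1:**
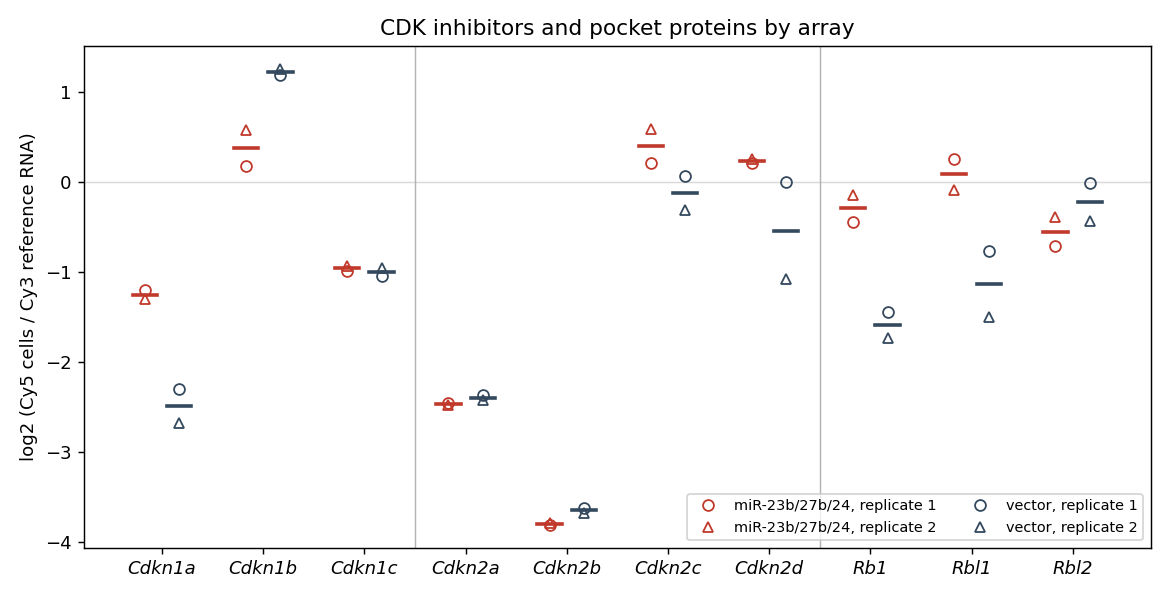
Log2 ratio of Cy5 over Cy3 for the 10 genes, with circles for replicate 1, triangles for replicate 2 and bars for the mean of each group (n = 2), miR-23b/27b/24 left of vector. Both miR-23b/27b/24 arrays sit above both vector arrays for 5 genes, among them Cdkn1a, Rb1 and Rbl1. Both sit below for 3 genes, Cdkn1b among them. Over all genes tested these shares were 27.4% above and 32.3% below.

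Cdkn1a, the p21 inhibitor of cyclin-kinase complexes and a known target of p53, was read by probe A_51_P363947 (chr17:27293819-27293878, mm7). Its log2 ratio was -1.20 and -1.30 on the miR-23b/27b/24 arrays, against -2.30 and -2.68 on the vector arrays. Both miR-23b/27b/24 arrays were above both vector arrays. The Cy5 signal over local background was 858 and 802 on the miR-23b/27b/24 arrays, against 394 and 268 on the vector arrays. The Cy3 signal of the reference RNA was 2380 and 2310 on the miR-23b/27b/24 arrays and 2730 and 2610 on the vector arrays, so the larger difference lay in the cells' channel. Cdkn1a rose 2.37-fold (log2 fold change 1.24 ± 0.17 SE, 95% interval 0.80 to 1.68, limma adjusted p = 0.0222). The probe is printed on 10 spots per array. Single spots ranged from -1.38 to -1.15 on the miR-23b/27b/24 arrays and from -2.85 to -2.22 on the vector arrays. Spots of an array are repeat readings of the same RNA, with an SD of 0.04 to 0.09, while the arrays of a group differed by 0.10 for miR-23b/27b/24 and 0.38 for vector. With every local background as measured, the log2 fold change was 0.73 (adjusted p = 0.292). Without miR-23b/27b/24 replicate 1 or 2 the call was lost at log2 fold changes of 1.19 and 1.29 (limma adjusted p = 0.163 and 0.125). Without vector replicate 1 or 2 it was kept at 1.43 and 1.06 (limma adjusted p = 0.00528 and 0.0155).

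Cdkn1b, the p27 inhibitor of Cdk2 complexes, had 3 probes with unlike values. Its brightest probe, A_51_P146126, is annotated to the cDNA AK169586 (chr6:134939519-134939578, mm7) and stood for the gene. Which transcript it reads was not checked here, so its value may not be that of the RefSeq Cdkn1b transcript. Its log2 ratio was 0.18 and 0.58 on the miR-23b/27b/24 arrays, against 1.19 and 1.26 on the vector arrays. Both miR-23b/27b/24 arrays were below both vector arrays, with Cy5 signals of 1830 and 2420 in miR-23b/27b/24 cells and 4190 and 3420 in vector cells. The log2 fold change was -0.85 ± 0.17 (SE, 95% interval -1.29 to -0.40). That missed the threshold over all genes (limma adjusted p = 0.0514) and passed it in the fit over all probes (limma adjusted p = 0.0472). A_51_P169173, 4.11 kb away at chr6:134935407-134935465, reads the RefSeq transcript in its coding sequence. Its letters are shown because it gave a different value from the probe used.
Cdkn1b probe A_51_P169173: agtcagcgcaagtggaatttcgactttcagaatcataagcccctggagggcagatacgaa
On this probe the log2 ratio was 1.76 and 1.82 on the miR-23b/27b/24 arrays, against 2.07 and 1.69 on the vector arrays, and the groups overlapped. Its log2 fold change was -0.09 ± 0.17 (SE, 95% interval -0.53 to 0.35, limma adjusted p over probes 0.777). Subtracting this probe's log2 ratio from that of A_51_P146126 within each array gave -1.57 and -1.24 for miR-23b/27b/24, against -0.88 and -0.43 for vector. These differences had no overlap between the groups, though 60% of all probes showed none in their log2 ratios. Whether the 2 probes changed unequally was not tested. The dim probe A_52_P673863 (chr6:134937910-134937969) gave 0.04 ± 0.18 (SE, limma adjusted p over probes 0.926) and was well above background on 1 of 2 vector arrays. With the mean of the 3 probes in place of the brightest, the log2 fold change of Cdkn1b was -0.30.

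Cdkn1c, the p57 inhibitor and an imprinted gene, was close to background on A_51_P339540 (chr7:139886128-139886187, mm7). Its log2 ratio was -0.99 and -0.93 on the miR-23b/27b/24 arrays, against -1.04 and -0.96 on the vector arrays. The groups overlapped, and the Cy5 signal was 26.8 and 41.1 in miR-23b/27b/24 cells and 29.2 and 31.4 in vector cells. It was well above background on 1 miR-23b/27b/24 array and both vector arrays. The log2 fold change was 0.04 ± 0.12 (SE, 95% interval -0.27 to 0.35, limma adjusted p = 0.882), and its sign turned under several settings, to -0.57 with every local background as measured.

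**Figure D2:**
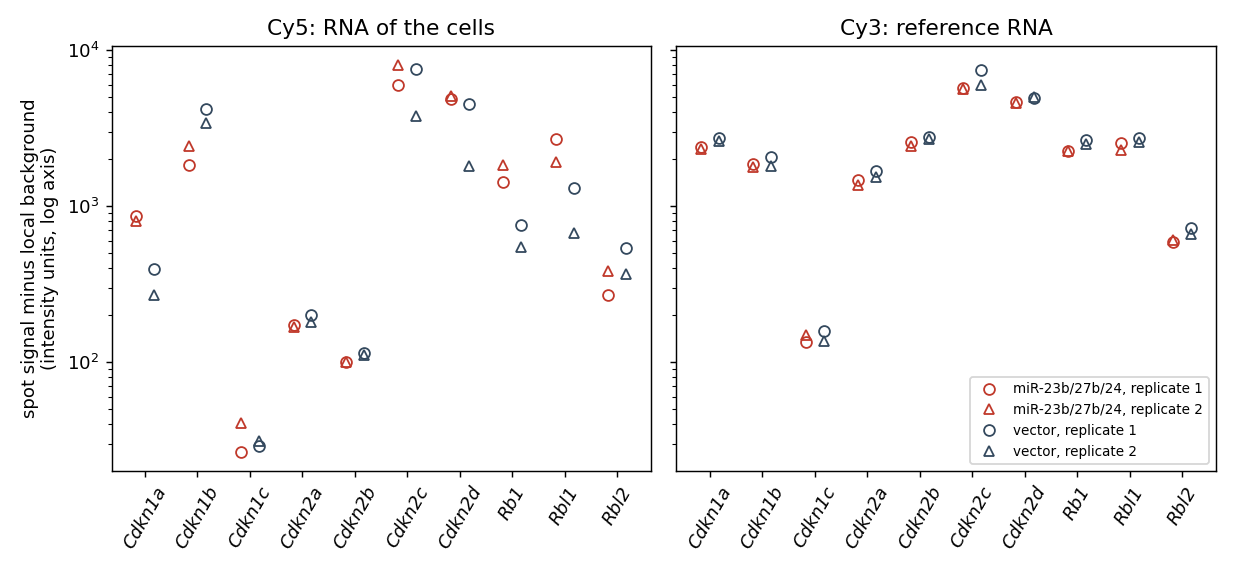
Spot signal minus local background on a log axis for the probe used for each gene, in Cy5 (cells, left panel) and Cy3 (reference RNA, right panel), with circles for replicate 1 and triangles for replicate 2. The Cdkn1a signal in Cy5 was 858 and 802 in miR-23b/27b/24 cells and 394 and 268 in vector cells, while its Cy3 signal stayed between 2310 and 2730.

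Of the 4 INK4 genes, 0 passed the threshold, and 2 had positive and 2 negative log2 fold changes. Cdkn2a was read by A_51_P144813 (chr4:88678367-88678426, mm7). The gene encodes both the kinase inhibitor p16Ink4a and Arf, which binds Mdm2, and the probe's annotation lists transcripts of both, so they were not separated. The log2 ratio of Cdkn2a was -2.46 and -2.48 on the miR-23b/27b/24 arrays, against -2.37 and -2.42 on the vector arrays. The groups did not overlap, but their distance was small beside the fit's error, with a log2 fold change of -0.08 ± 0.12 (SE, 95% interval -0.38 to 0.23, limma adjusted p = 0.725). Cdkn2b, the p15 inhibitor encoded next to Cdkn2a, was read by A_52_P498241, which has no coordinates in the files. Its log2 ratio was -3.81 and -3.79 on the miR-23b/27b/24 arrays, against -3.62 and -3.68 on the vector arrays. Its log2 fold change was -0.15 ± 0.12 (SE, 95% interval -0.46 to 0.15, limma adjusted p = 0.465). With every local background as measured these values were -0.80 for Cdkn2a and -1.22 for Cdkn2b, and neither passed.

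Both genes of the Cdkn2a locus gave far less signal from 4TO7 RNA than from the reference RNA. Cy5 signals of Cdkn2a were 174 and 168 in miR-23b/27b/24 cells and 202 and 181 in vector cells, against Cy3 signals of 1470, 1370, 1670 and 1540 on the same arrays. Cdkn2b gave Cy5 signals of 100 and 100 in miR-23b/27b/24 cells and 114 and 111 in vector cells. Per array, the Cy5 signal was 11.7% to 12.2% of the Cy3 signal for Cdkn2a and 3.87% to 4.15% for Cdkn2b. For Cdkn1a, outside this locus, it was 10.3% to 36.1%, which reached the share of Cdkn2a but not the lower share of Cdkn2b. Among 5414 probes with Cy3 signals of 1000 to 4000, mean log2 ratios stood at percentile 3.69 for Cdkn2a and 0.61 for Cdkn2b. The percentile of Cdkn1a was 6.41. These ratios depend on the cell lines in the reference mix and, with no dye swap, carry any dye bias of the probe. The Cdkn2a and Cdkn2b probes were well above background in Cy5 on all 4 arrays, so a low signal was present and was not shown to be absent.

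Cdkn2c, the p18 inhibitor, was bright on A_51_P513719 (chr4:109037613-109037672, mm7). The log2 ratio of this probe was 0.21 and 0.59 on the miR-23b/27b/24 arrays, against 0.07 and -0.31 on the vector arrays. The groups did not overlap, and the log2 fold change was 0.52 ± 0.21 (SE, 95% interval -0.02 to 1.06, limma adjusted p = 0.192). A second probe, offset by 22 bases and so not independent, gave 0.53 ± 0.20 (SE). Cdkn2d, the p19 INK4 inhibitor, was read by A_51_P122356 (chr9:21165094-21165153, mm7). For Cdkn2d the log2 ratio was 0.21 and 0.26 on the miR-23b/27b/24 arrays, against 0.00 and -1.08 on the vector arrays. Vector replicate 2 stood apart from the other arrays, with a Cy5 signal of 1810, and the log2 fold change of 0.77 ± 0.37 (SE, limma adjusted p = 0.257) ran from 0.23 without that array to 1.32 without vector replicate 1 (limma adjusted p = 0.00587).

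Rb1, the retinoblastoma protein, was read by A_51_P136888 (chr14:67877318-67877377, mm7). For Rb1 the log2 ratio was -0.44 and -0.14 on the miR-23b/27b/24 arrays, against -1.44 and -1.73 on the vector arrays. Both miR-23b/27b/24 arrays were above both vector arrays, with Cy5 signals of 1420 and 1830 in miR-23b/27b/24 cells and 754 and 545 in vector cells. Rb1 rose 2.46-fold (log2 fold change 1.30 ± 0.18 SE, 95% interval 0.84 to 1.76, limma adjusted p = 0.0219). Of its 10 spots per array 8 or more were used, with single spots between -0.49 and -0.04 on the miR-23b/27b/24 arrays and between -1.80 and -1.40 on the vector arrays. With every local background as measured the log2 fold change was 1.06 (adjusted p = 0.102). Without miR-23b/27b/24 replicate 1 or 2 the call was lost at log2 fold changes of 1.45 and 1.15 (limma adjusted p = 0.105 and 0.130). Without vector replicate 1 or 2 it was kept at 1.44 and 1.15 (limma adjusted p = 0.00896 and 0.0218).

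A dimmer Rb1 probe, A_52_P419873, lies 67 kb away within the coding sequence (chr14:67944271-67944330, mm7), and its letters are shown because it reads another stretch of the transcript.
Rb1 probe A_52_P419873: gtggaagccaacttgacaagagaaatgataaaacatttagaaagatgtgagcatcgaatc
This probe's log2 ratio was -0.19 and -0.15 on the miR-23b/27b/24 arrays, against -0.58 and -0.65 on the vector arrays. The direction was the same as on the brighter probe. This dimmer probe passed the filter through the miR-23b/27b/24 arrays alone, where it is higher, so its direction is no support for the Rb1 rise. It was not well above background on either vector array, so the size of its difference is uncertain. In the reported setting its log2 fold change was 0.44 ± 0.12 (SE, 95% interval 0.13 to 0.76, limma adjusted p over probes 0.0861). The mean log2 Cy5 signal was 6.71 in miR-23b/27b/24 cells and 6.26 in vector cells. With each vector array taken at no less than the lowest signal well above background, the difference was 1.36-fold. That value is an estimate without its error and not a lower bound, and without dye swaps it is open to dye bias. The size of the difference did not hold across settings. The log2 fold change of this probe was 0.04 with every local background as measured (limma adjusted p over probes 0.894), and the authors' deposited table gave 1.94 (limma adjusted p over probes 0.0591).

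Rbl1, which encodes p107, was read by A_51_P286665 (chr2:156887297-156887356, mm7). Its log2 ratio was 0.26 and -0.09 on the miR-23b/27b/24 arrays, against -0.77 and -1.50 on the vector arrays. Both miR-23b/27b/24 arrays were above both vector arrays, with Cy5 signals of 2680 and 1910 in miR-23b/27b/24 cells and 1310 and 670 in vector cells. The log2 fold change of 1.22 ± 0.28 (SE, 95% interval 0.48 to 1.95) missed the threshold (limma adjusted p = 0.0666). The vector arrays differed most, and without vector replicate 1 the log2 fold change was 1.58 (limma adjusted p = 0.00884), against 0.86 without vector replicate 2. Beside this, the median log2 ratio of 25 E2F-driven genes was 0.22 and 0.00 on the miR-23b/27b/24 arrays, against -0.35 and -1.30 on the vector arrays, and the part of that difference between the vector arrays in the Rbl1 and Cdkn2d values was not tested. Rbl2, which encodes p130, overlapped between the groups on A_52_P117325 (chr8:89715790-89715849, mm7), at -0.71 and -0.39 on the miR-23b/27b/24 arrays, against -0.01 and -0.43 on the vector arrays. Its log2 fold change was -0.33 ± 0.20 (SE, 95% interval -0.86 to 0.20, limma adjusted p = 0.370). The other Rbl2 probe, 758 bases away, gave -0.15 ± 0.14 (SE, limma adjusted p over probes 0.55).

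**Figure D3:**
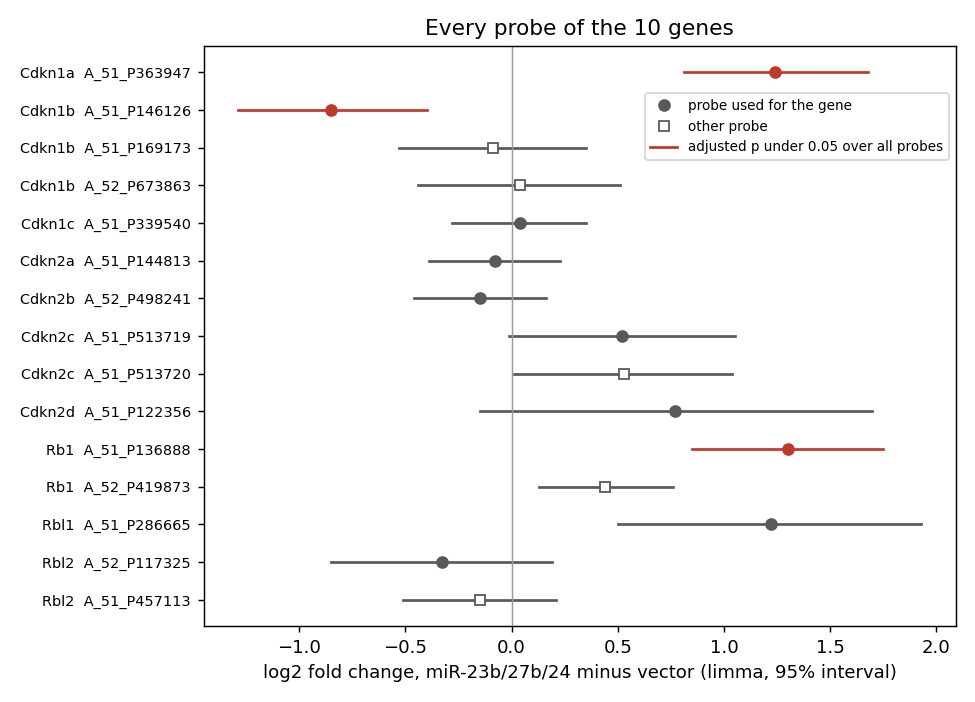
Log2 fold change, miR-23b/27b/24 minus vector, of all 15 probes with the 95% interval of the limma fit over probes, with filled circles for the probe used for a gene and open squares for its other probes. Colour marks an adjusted p under 0.05 over probes, reached by Cdkn1a, 1 of the 3 Cdkn1b probes and 1 of the 2 Rb1 probes.

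Distances between genes were Euclidean, on log2 ratios centred on each gene's mean over the 4 arrays. The candidates were 14416 genes well above background in Cy5 on all arrays. Genes with clone, RIKEN, predicted or database identifier names were left out of them. Nearest to Cdkn1a among these candidates were Troap (0.0176), Sparc (0.0598) and Hdac1 (0.0656). Those nearest to Rb1 were Sertad1 (0.0369), Kcnn4 (0.0843) and Aamdc (0.0989). With 4 arrays in 2 groups, such a distance mostly restates the group difference and describes these arrays alone.

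Genes that act around the inhibitors and pocket proteins were taken from 9 lists, of which 143 of 145 entries were measured. Over all genes tested 4.77% were called higher and 4.64% lower, the shares beside which the counts below stand. In the list of G1 cyclins and their kinases, which includes partners that the inhibitors bind and regulators of the kinases, 4 of 14 genes rose and 0 fell. Their median log2 fold change was 0.65 against -0.03 over all genes. Ccnd1, cyclin D1, had log2 ratios of 2.10 and 2.05 in miR-23b/27b/24 cells, against 0.52 and -0.05 in vector cells (log2 fold change 1.84 ± 0.22 SE, limma adjusted p = 0.0159). Ccne1 and Ccne2, the E cyclins that activate Cdk2, rose 4.01-fold and 2.92-fold. Cdk6, which INK4 proteins bind as they do Cdk4, rose 2.24-fold on the probe used (limma adjusted p = 0.0241). The 3 probes of Cdk6 ranged from 0.13 to 1.16 in log2 fold change. Cdk4 was not called (log2 fold change 0.13, limma adjusted p = 0.608).

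Of 10 E2F and DP factors, which include partners of the pocket proteins, 1 rose and 0 fell, with a median of 0.21. That count is near the 9.41% of all genes that passed in either direction. The gene that rose was E2f1, with log2 ratios of 0.98 and 0.95 in miR-23b/27b/24 cells, against -0.43 and -0.84 in vector cells (log2 fold change 1.60 ± 0.18 SE, limma adjusted p = 0.0135). Among 25 E2F-driven genes the median was 1.06, though the vector arrays lay apart, with median log2 ratios of -0.35 and -1.30. In that list 3 genes rose while 0 fell. These were Pcna, the DNA polymerase clamp (log2 fold change 1.95), Cdc6, which loads the replicative helicase (1.81), and Fen1, the flap endonuclease (1.22). Of 8 measured genes of the MuvB core, which acts with Rbl1 and Rbl2, and of its other partners, 0 passed. The smallest p there belonged to Mybl2 (log2 fold change 0.98, limma adjusted p = 0.0966) and Lin37 (-0.39, limma adjusted p = 0.126). Of 19 repressors and phosphatases that bind RB proteins, 2 rose and 1 fell, with a median of 0.44. Hdac1, a histone deacetylase, rose 2.28-fold (limma adjusted p = 0.0280), and Rbbp7, a histone-binding subunit, rose 1.83-fold (limma adjusted p = 0.0353). Smarca2, a chromatin remodelling ATPase, fell by 0.88 on the log2 scale (limma adjusted p = 0.0211).

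Among 15 genes for the turnover of CDK inhibitors 0 passed, with a median of 0.39 and the smallest p for Ubac1 (0.55, limma adjusted p = 0.0635) and Dtl (0.95, limma adjusted p = 0.0705). Dtl encodes a substrate receptor for the degradation of p21. Among 23 measured regulators of the Cdkn2a locus 0 passed, with a median of 0.05, and Ets1 and Ets2, which encode ETS factors, had the smallest p (log2 fold changes -0.95 and -1.49, limma adjusted p = 0.0610 and 0.0622). Of 21 transcription regulators of Cdkn1a and Cdkn1b 1 rose and 1 fell, with a median of 0.06, again near the share over all genes. Egr1, an immediate early factor, had log2 ratios of -1.29 and -1.47 in miR-23b/27b/24 cells, against -4.81 and -4.16 in vector cells, and rose 8.6-fold (limma adjusted p = 0.00639). Myc, a known repressor of Cdkn1a, had log2 ratios of -0.52 and -0.28 in miR-23b/27b/24 cells, against 0.79 and 1.59 in vector cells, and fell by 1.59 on the log2 scale (limma adjusted p = 0.0406). Of 8 relatives of the CDK inhibitors 0 rose and 1 fell, with a median of 0.35. Cables1, which links kinases to other proteins, fell by 2.08 on the log2 scale (limma adjusted p = 0.0137). It was well above background on 1 of 2 miR-23b/27b/24 arrays, so the size of its fall is uncertain. Its probe passed the filter through the vector arrays alone, where it is higher, so the filter itself favoured a fall. The log2 fold change of Cables1 was -3.58 with Feature Extraction's processed signals and -3.56 in the authors' deposited table. Of the 14 listed genes that passed, 8 missed with every local background as measured, namely Ccne2, Cdk6, E2f1, Hdac1, Rbbp7, Pcna, Cdc6 and Myc. With median centring in place of loess 4 missed, namely Hdac1, Rbbp7, Pcna and Cdc6. Cdk6 (log2 fold change 0.57) and Myc (-1.37) missed with the mean of their probes.

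**Figure D4:**
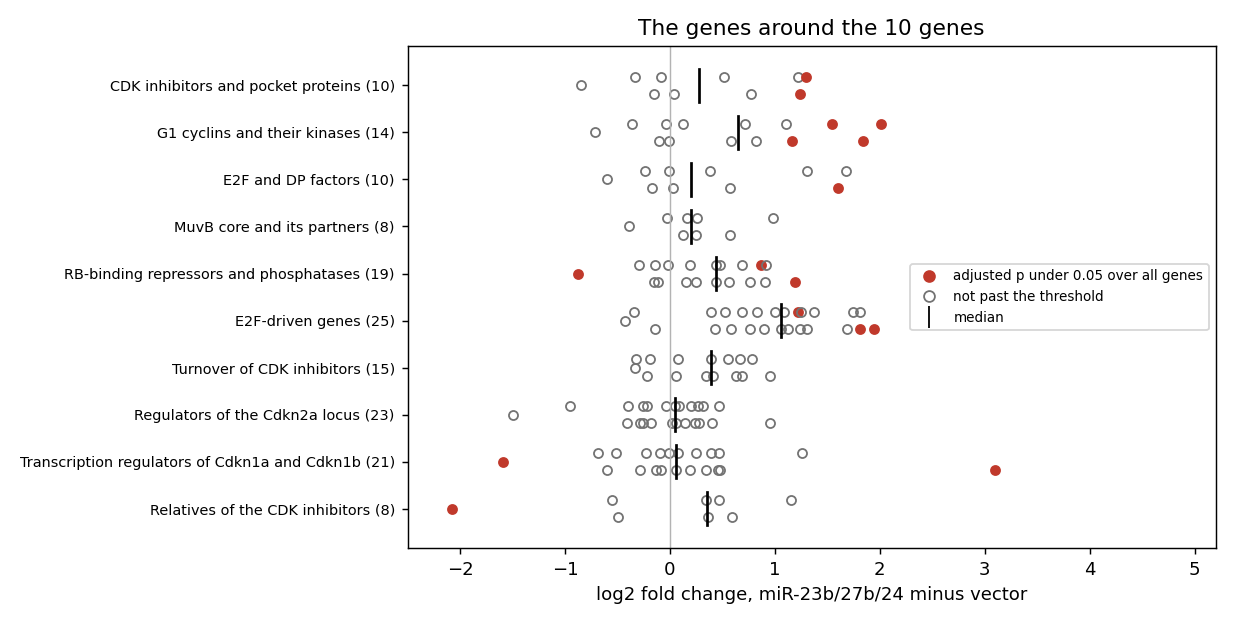
Log2 fold change, miR-23b/27b/24 minus vector, of the measured genes of each list, with the number of genes in brackets, filled points for an adjusted p under 0.05 over all genes and a bar for the median. Medians were 0.28 for the CDK inhibitors and pocket proteins, 0.65 for G1 cyclins and their kinases and 1.06 for E2F-driven genes. For the E2F-driven genes the median log2 ratio was -0.35 on vector replicate 1 and -1.30 on vector replicate 2.

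**Figure D5:**
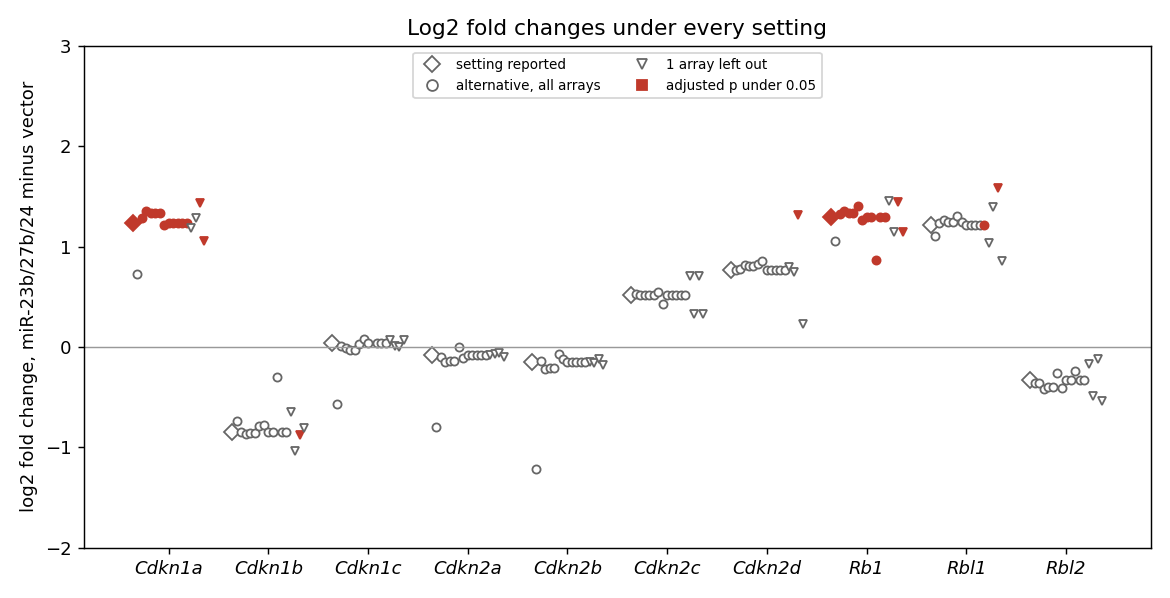
Log2 fold change, miR-23b/27b/24 minus vector, of the 10 genes under the reported setting (diamonds), the alternatives with all arrays (circles) and with 1 array left out (triangles), filled where the adjusted p was under 0.05. Cdkn1a and Rb1 stayed above 0 in all 16 alternatives and passed in 13, while Cdkn1c changed sign.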

How the data were processed

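RNA of 4 cell samples was measured on 2-colour Agilent arrays. Mean signals and local backgrounds are intensity from Agilent Feature Extraction 9.5.3.1, and its Cy5 over Cy3 ratios are log10, per the file headers. The authors also deposited a table of log2 ratios. They matched the Feature Extraction ratio centred on each probe's median, within 0.001 for 87.3% to 87.8% of values. Its column medians were 0.0221 and -0.0149 (miR-23b/27b/24) and 0.0133 and -0.0172 (vector), and it served as an alternative. The program behind it is not named in the sources used here.

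In R 4.3.3 with limma 3.58.1, local backgrounds marked as outlying (1782 to 1976 spots per array in Cy5) were replaced by the array's median. Earlier work on these data chose that replacement after seeing results with and without it, and it was kept here. Normexp with an offset of 50 and loess within arrays followed. Spots of a probe were averaged without outlier spots. Kept probes had Cy5 signals well above background on each array of 1 group or both, and a gene was read by its brightest such probe. Probes were named through RefSeq of GRCm38.p6 (22951 by accession, 6659 by symbol, 3109 by synonym), and 8455 kept the file's name. Probe coordinates are those of the files, in mm7. Fits by lmFit and eBayes had 2 residual degrees of freedom and 2.83 prior ones. Adjustment was by Benjamini-Hochberg over 20500 genes. The number of arrays limits the precision. The fit was tested on simulated data. At a low spread it recovered most large changes, and at a higher spread with smaller changes it made no call. The low-spread simulation was set up after the other had made none.

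Named were all 10 genes, the called genes of each list, at most 4 by size of change (or, with none called, the 2 of smallest p), and the 3 nearest genes of each called member with signal on all arrays. The genes and lists were chosen with earlier results of these data known. Alternatives changed the background, scaling, filter, probe choice and moderation, added a replicate block and left out each array.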

Additional observations from a re-analysis of the deposited data

How the results depend on the processing

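With all arrays, 12 alternatives were run, and Cdkn1a and Rb1 passed in 11 of them. The exception kept every local background as measured: Cdkn1a was then 0.73 in log2 (adjusted p = 0.292), Rb1 1.06 (adjusted p = 0.102) and Cdkn1c -0.57, with 0 of the 10 genes, 635 genes and 884 probes past the threshold, against 1929 genes and 2960 probes in the reported fit. Median centring in place of loess gave 1263 genes. Cdkn1c also turned to -0.01 with Feature Extraction's processed signals, -0.03 with its log ratio, -0.03 with the authors' deposited table and 0 without vector replicate 1. Of the other Cdkn1b probes, A_51_P169173 turned to 0.76 with every background as measured and 0.10 without vector replicate 1 (lowest -0.29 without an array), and A_52_P673863 to -0.18 without vector replicate 2 (highest 0.26). Leaving out single arrays gave 214 to 4584 genes, 251 to 6851 probes and 0 to 5 of the 10 genes. There were 214 and 236 genes, and 0 of the 10, without miR-23b/27b/24 replicate 1 and 2, and 4584 and 5 without vector replicate 1. A lone array is then assumed to vary like the other group. Ranges of log2 fold change were 1.06 to 1.43 for Cdkn1a, -1.04 to -0.65 for Cdkn1b (-0.88, adjusted p = 0.042 without vector replicate 1), 0.23 to 1.32 for Cdkn2d, 1.15 to 1.45 for Rb1, 0.86 to 1.58 for Rbl1 and 0 to 0.07 for Cdkn1c. Same-numbered arrays share only a number (correlation of deviations 0.0465 over all genes and 0.309 over the 10 genes, from 2 pairs). With it as a replicate block, Rbl1 passed at 1.22 (adjusted p = 0.0305), and 1740 genes and 3 of the 10 passed. The cause of these changes was not tested. Of 20 named genes from the lists, 14 passed and 0 of 319 alternative values turned sign. Of the 14, 8 missed with every background as measured, 4 with median centring, 2 with the mean of probes, 1 (Rbbp7) with each form of Feature Extraction's values and the authors' table, 14 without miR-23b/27b/24 replicate 1 and 13 without miR-23b/27b/24 replicate 2.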
